A study of Mus musculus with 12 samples.

Results

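Svop, Ano3, 9530053A07Rik, 9030617O03Rik, 1700007K13Rik, Ak1 and Abhd4 are 7 genes of the 24108 listed in an RNA sequencing table of mouse neural stem/progenitor cells (NPCs) with and without p53. They were picked by name for a large fall when p53 is lost, so that fall describes how they were chosen and is not tested here. All 7 passed the filter on low counts that left 13745 genes. The fall was deep for 6 of them. Abhd4 kept 55.0% of its p53+/+ level in one culture and 46.2% in the other, so it was lowered and not lost.

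The NPCs came from the subventricular zone (SVZ) of C57BL/6 mice at postnatal days 9 to 12, and 12 libraries were made, 3 for each of 4 groups. The groups were p53-/- NPCs grown for 48 h on a monolayer of brain microvascular endothelial cells (bmvEC), p53-/- NPCs grown alone for 48 h on laminin, p53+/+ NPCs on bmvEC for 48 h, and p53+/+ NPCs alone on laminin for 48 h. Every group was kept in EGF and bFGF with a little serum. The study made its p53-/- NPCs by acute recombination of loxP-flanked Trp53 in primary cells, which it infected with a Cre adenovirus. Its controls for p53 loss received an adenovirus without Cre. The share of cells that recombined was not analysed here. The bmvEC were purchased primary C57BL/6J cells for which no p53 deletion is described, and NPCs were taken off them by selective trypsinization. The libraries carry the numbers of 3 paired experiments (17_9, 25_9 and 1_10). Values below are read counts, or CPM (the count of a gene scaled to a common library total) after scaling by the trimmed mean of M-values (TMM).

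Total counts were 16509710 to 22245224 per library. Trp53 itself had 13.7 to 19.3 CPM in p53-/- co-cultures, 11.7 to 17.4 CPM in p53-/- NPCs alone, 61.8 to 78.8 CPM in p53+/+ co-cultures and 80.3 to 109 CPM in p53+/+ NPCs alone, so the libraries matched their labels with 25.0% of the p53+/+ level left in co-culture and 15.1% alone. The part of bmvEC RNA in the share left was not tested. Cdkn1a, the p53 target whose product p21 inhibits cyclin-dependent kinases, was at 4.65% of the p53+/+ level in co-culture and 3.57% alone. All 8 NPC and type-B cell markers were detected in every group. In co-culture they summed to 15287 to 18371 CPM without p53 and 20317 to 28556 CPM with p53, while alone the genotypes overlapped. The 4 ependymal markers summed to 43.1 to 57.7 CPM in p53-/- and 116 to 174 CPM in p53+/+ co-cultures. Alone their sums were 29.7 to 57.6 and 90.5 to 109 CPM. Mural and fibroblast markers went the other way in co-culture (71.6 to 103 and 61.4 to 68.4 CPM). The part of these differences in the p53 values was not tested. Summed over 10 endothelial markers, the level was 87.3 to 101 CPM in p53-/- co-cultures, 11.1 to 16.6 CPM in p53-/- NPCs alone, 98.9 to 156 CPM in p53+/+ co-cultures and 14.0 to 15.8 CPM in p53+/+ NPCs alone. Pecam1, Cdh5 and Tie1, which define endothelial cells, reached 12.8, 25.0 and 7.41 CPM in p53-/- co-cultures and 18.0, 37.2 and 12.4 CPM in p53+/+ co-cultures, and none of the 3 passed 0.485 CPM in any NPC library grown alone. Both alone libraries of experiment 17_9 stood apart in the mural and fibroblast list, at 788 CPM (p53-/-) and 453 CPM (p53+/+) against at most 109 CPM elsewhere, which was nearly all smooth muscle actin, Acta2. In bulk RNA, fewer cells that express a gene and less RNA per cell cannot be told apart.

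p53 is a transcription factor that is held at a low level by its own target Mdm2 and accumulates after DNA damage and other stress. It binds DNA as a tetramer, at sites built of a pair of palindromic decamers, and raises genes of cell-cycle arrest, apoptosis and metabolism. In the SVZ it restrains the proliferation of neural stem cells. The products of the 7 genes belong to unrelated families. Svop encodes a synaptic vesicle membrane protein related to the SV2 transporters, and Ano3 a membrane protein of the anoctamin (TMEM16) family that holds chloride channels and lipid scramblases. Ak1, cytosolic adenylate kinase, passes phosphate between ATP, ADP and AMP. Abhd4 is a serine hydrolase that strips acyl chains from N-acyl phospholipids on one route to N-acylethanolamines, a lipid class that includes anandamide. RefSeq names 9030617O03Rik as Dglucy, D-glutamate cyclase, a mitochondrial enzyme. For 9530053A07Rik it lists the synonym FCGBP, in human a mucin-like secreted protein that binds the Fc part of IgG. For 1700007K13Rik it lists the synonym Rbest47, whose role is not described here.

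Because p53 acts by binding DNA, the promoters of the genes were searched for its motif. The RefSeq promoter table (GRCm38.p6, 250 bases before to 50 after each transcript start) held 11 promoters for 6 of the 7 genes. It held none for Svop, which was therefore not searched. Each of the 11 promoters was searched on both strands for the p53 decamer, matched to its consensus, which is its own reverse complement. Of the 11 promoters 2 held a match, and no promoter held a pair of decamers 0 to 13 bases apart. Among all 32851 promoters of the same length, 8.36% held a decamer and 0.0731% such a pair. The matching promoters of 1700007K13Rik (chr2:28466275-28466574, minus strand) and Abhd4 (its second promoter, chr14:54259033-54259332, plus strand) are given with the decamers in capitals. Beside them stand the promoters of 9530053A07Rik (chr7:28129216-28129515, plus strand) and 9030617O03Rik (chr12:100778807-100779106, plus strand), which had no match and whose genes fell further than Abhd4. All read 5′ to 3′ on the strand of the gene.
1700007K13Rik: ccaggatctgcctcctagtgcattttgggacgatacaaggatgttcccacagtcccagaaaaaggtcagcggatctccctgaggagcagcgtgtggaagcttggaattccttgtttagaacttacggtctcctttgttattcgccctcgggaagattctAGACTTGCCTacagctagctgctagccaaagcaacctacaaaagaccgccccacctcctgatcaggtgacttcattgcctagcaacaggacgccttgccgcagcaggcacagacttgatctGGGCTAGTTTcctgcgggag
Abhd4, second promoter: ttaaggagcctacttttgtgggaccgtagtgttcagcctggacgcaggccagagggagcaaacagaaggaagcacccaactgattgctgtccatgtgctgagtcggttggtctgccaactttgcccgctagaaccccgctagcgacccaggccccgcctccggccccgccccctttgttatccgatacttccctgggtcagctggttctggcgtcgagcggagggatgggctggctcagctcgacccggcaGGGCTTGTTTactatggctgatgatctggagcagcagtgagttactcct
9530053A07Rik: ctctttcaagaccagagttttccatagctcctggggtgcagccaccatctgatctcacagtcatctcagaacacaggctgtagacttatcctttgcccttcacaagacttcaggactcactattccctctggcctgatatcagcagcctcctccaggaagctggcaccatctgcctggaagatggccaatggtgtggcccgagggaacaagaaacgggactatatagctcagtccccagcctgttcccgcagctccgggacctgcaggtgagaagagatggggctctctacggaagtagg
9030617O03Rik: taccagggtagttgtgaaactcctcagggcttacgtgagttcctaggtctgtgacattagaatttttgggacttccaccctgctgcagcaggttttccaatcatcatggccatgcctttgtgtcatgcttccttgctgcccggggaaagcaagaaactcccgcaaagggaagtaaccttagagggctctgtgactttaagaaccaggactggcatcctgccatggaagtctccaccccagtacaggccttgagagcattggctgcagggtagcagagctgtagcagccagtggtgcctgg
In 1700007K13Rik the decamers were AGACTTGCCT, which began 91 bases before the start, and GGGCTAGTTT, which began at position 31. In Abhd4 the decamer was GGGCTTGTTT at position 2. A match of letters is not a bound site, and sites outside these windows were not searched.

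Of the 7 genes Svop, which encodes a vesicle membrane protein, had the deepest fall in both cultures. Svop had 1, 3 and 0 reads in the p53-/- co-cultures of experiments 17_9, 25_9 and 1_10, and 609, 774 and 449 reads in the p53+/+ co-cultures. In NPCs alone it had 4, 2 and 18 reads without p53 and 468, 521 and 337 reads with p53. In each culture the p53-/- libraries lay wholly below the p53+/+ libraries, and the co-culture library of experiment 1_10 had no Svop read at all, which with 3 counts as the floor allows up to 0.163 CPM. Summed over libraries, Svop kept 0.222% of the p53+/+ level in co-culture (exact 95% counting interval 0.0604% to 0.569%) and 1.67% in NPCs alone (1.06% to 2.49%). Its fitted log2 fold change was the lowest of all 13745 genes in co-culture (-8.68 ± 0.65, SE) and ranked 3 from the lowest alone (-5.88 ± 0.51). At so few reads the fitted value depends on the prior count of the fit. The p53+/+ levels were 30.7 ± 6.17 CPM in co-culture and 24.1 ± 6.25 CPM alone (SD, n = 3 each), and these 2 groups overlapped.

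Ano3 had 13, 13 and 18 reads in p53-/- co-cultures and 638, 450 and 647 reads in p53+/+ co-cultures. Grown alone, p53-/- NPCs had 28, 28 and 76 Ano3 reads and p53+/+ NPCs 760, 563 and 772. The 76 reads of experiment 1_10 were the highest p53-/- value, and every p53-/- library stayed below every p53+/+ library. Ano3 was at 2.58% of the p53+/+ level in co-culture (interval 1.87% to 3.48%) and at 5.80% alone (4.83% to 6.92%), with fitted log2 fold changes of -5.29 ± 0.46 (rank 5) and -4.09 ± 0.41 (rank 10). The p53-/- co-culture and alone libraries did not overlap either, at 0.760 ± 0.187 CPM and 2.28 ± 1.68 CPM (SD, n = 3 each), while the p53+/+ groups did, at 29.8 ± 8.06 CPM in co-culture and 38.2 ± 9.81 CPM alone.

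9530053A07Rik was read 2, 2 and 3 times in p53-/- co-cultures, against 113, 167 and 132 times in p53+/+ co-cultures. In NPCs alone it was read 8, 0 and 19 times without p53 and 307, 337 and 262 times with p53. Its p53-/- groups overlapped each other near the detection limit, and both lay far below the p53+/+ groups. The p53-/- level was 1.73% of the p53+/+ level in co-culture (interval 0.690% to 3.59%) and 2.74% alone (1.80% to 4.02%), and the fitted log2 fold changes were -5.77 ± 0.68 and -5.14 ± 0.56, rank 4 in both. The row named Fcgbp, the symbol that RefSeq lists as the synonym, had 0 to 1 reads per library, and reads that fit both genes equally well could not be told apart.

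**Figure D1:**
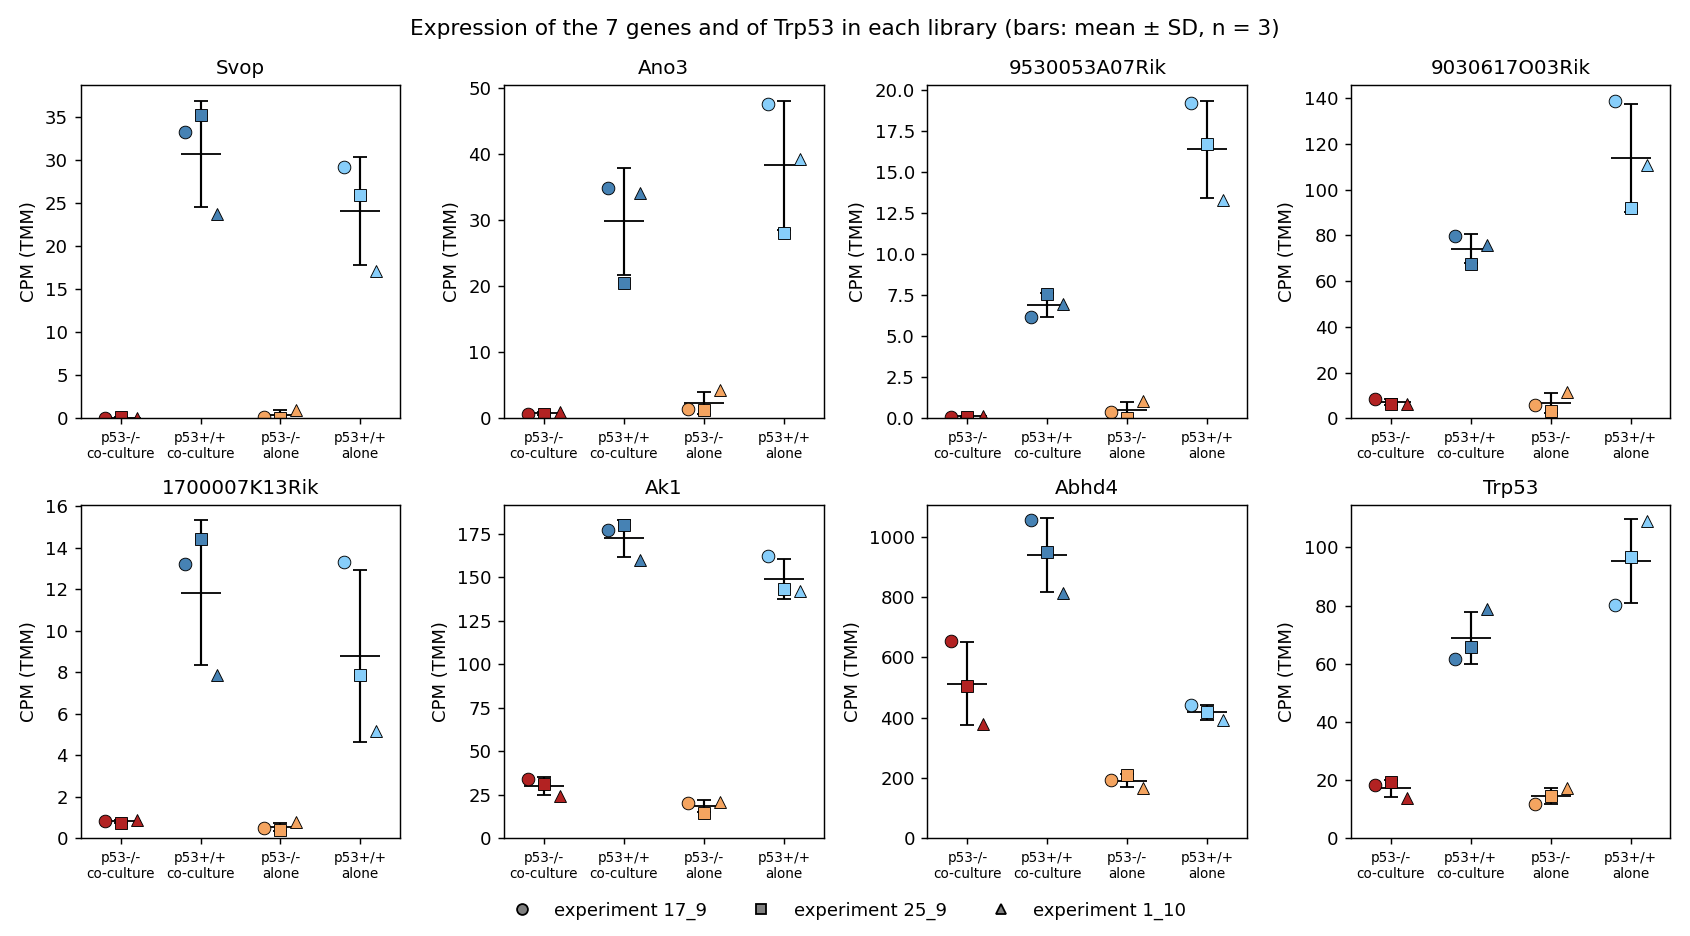
Expression of the 7 genes and Trp53 in every library, in CPM after TMM scaling on linear axes that start at 0, with the experiment given by the marker and the bars showing mean ± SD of 3 libraries. In all panels the p53-/- libraries lie below the p53+/+ libraries of the same culture, but Abhd4 in p53-/- co-cultures (378 to 654 CPM) reaches the range of p53+/+ NPCs alone (392 to 442 CPM).

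In co-culture the 3 enzymes kept a larger share of their level than Svop and Ano3 did, while in NPCs alone 9030617O03Rik and Ano3 were level. 9030617O03Rik had 169, 126 and 116 reads in p53-/- co-cultures and 1461, 1481 and 1435 reads in p53+/+ co-cultures. Grown alone, p53-/- NPCs had 117, 67 and 205 reads and p53+/+ NPCs 2231, 1848 and 2177. Its p53-/- groups overlapped, at 7.03 ± 1.24 CPM in co-culture and 6.70 ± 4.26 CPM alone, and made up 9.55% of the p53+/+ level in co-culture (interval 8.61% to 10.6%) and 5.72% alone (5.15% to 6.34%). The fitted log2 fold changes were -3.40 ± 0.35 (rank 26) in co-culture and -4.10 ± 0.36 (rank 9) alone. The p53+/+ groups were apart, at 74.2 ± 6.22 CPM in co-culture and 114 ± 24.0 CPM alone (SD, n = 3 each). The share left was larger in co-culture than alone in experiments 17_9 (10.6% and 4.07%) and 25_9 (9.39% and 3.33%). It was smaller in 1_10 (8.32% and 10.3%). In experiments 17_9, 25_9 and 1_10 co-culture gave 1.49, 2.07 and 0.553 times the alone level without p53. With p53 it gave 0.571, 0.734 and 0.683 times.

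Ak1 had 34.2, 31.1 and 24.1 CPM in p53-/- co-cultures and 177, 180 and 160 CPM in p53+/+ co-cultures. In NPCs alone it had 20.5, 14.5 and 20.8 CPM without p53 and 162, 143 and 142 CPM with p53. With 318 to 682 reads in each p53-/- library, Ak1 was reduced but well above detection. It was at 17.4% of the p53+/+ level in co-culture (interval 16.5% to 18.3%) and at 12.4% alone (11.7% to 13.2%), with fitted log2 fold changes of -2.53 ± 0.16 (rank 60) and -3.00 ± 0.17 (rank 37). The p53-/- co-culture libraries lay above the p53-/- alone libraries, and the p53+/+ groups overlapped.

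Abhd4 had 654, 505 and 378 CPM in p53-/- co-cultures and 1054, 950 and 812 CPM in p53+/+ co-cultures. The alone cultures had 192, 211 and 168 CPM without p53 and 442, 418 and 392 CPM with p53. It was at 55.0% of the p53+/+ level in co-culture and at 46.2% alone, with fitted log2 fold changes of -0.87 ± 0.18 and -1.13 ± 0.18 that ranked 562 and 441 from the lowest. Abhd4 was thus far from the largest falls in the table, and it was the only one of the 7 genes whose p53-/- co-culture level reached that of p53+/+ NPCs alone.

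1700007K13Rik was read 17, 15 and 16 times in p53-/- co-cultures and 243, 317 and 149 times in p53+/+ co-cultures. The alone cultures gave 10, 9 and 14 reads without p53 and 213, 158 and 102 reads with p53. The p53-/- libraries were close together and did not overlap the p53+/+ libraries, while within each genotype the co-culture and alone libraries overlapped in CPM (0.753 to 0.867 CPM in p53-/- co-cultures and 0.410 to 0.777 CPM in p53-/- NPCs alone). In each of the 3 experiments the p53-/- co-culture was above the p53-/- culture alone, by 1.12 to 1.84 times. The p53-/- level was 6.88% of the p53+/+ level in co-culture (interval 5.03% to 9.23%) and 6.42% alone (4.37% to 9.15%), with fitted log2 fold changes of -3.84 ± 0.39 (rank 20) and -3.98 ± 0.40 (rank 12).

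The order of the 4 groups followed genotype before culture for every gene but Abhd4. The genes were picked for a large fall with p53 loss, so this order describes that choice and is not a result. Svop, 1700007K13Rik and Ak1 were highest in p53+/+ co-cultures, and Ano3, 9530053A07Rik and 9030617O03Rik in p53+/+ NPCs alone. Abhd4 ran from p53+/+ co-cultures through p53-/- co-cultures and p53+/+ NPCs alone down to p53-/- NPCs alone, and only its middle pair overlapped. Across all tested genes, edgeR called 8.16% changed by p53 loss in co-culture (3.24% higher, 4.93% lower) and 6.29% in NPCs alone (2.02% higher, 4.27% lower) at an adjusted p under 0.05. Those 1122 and 864 genes became 2872 and 2278 with the experiment as a block, and 42 and 120 without experiment 25_9. In co-culture the split of 445 higher and 677 lower became 624 and 555 with library size alone as the scale. Nothing about the 7 genes is read from these shares, since the same contrasts picked them.

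**Figure D2:**
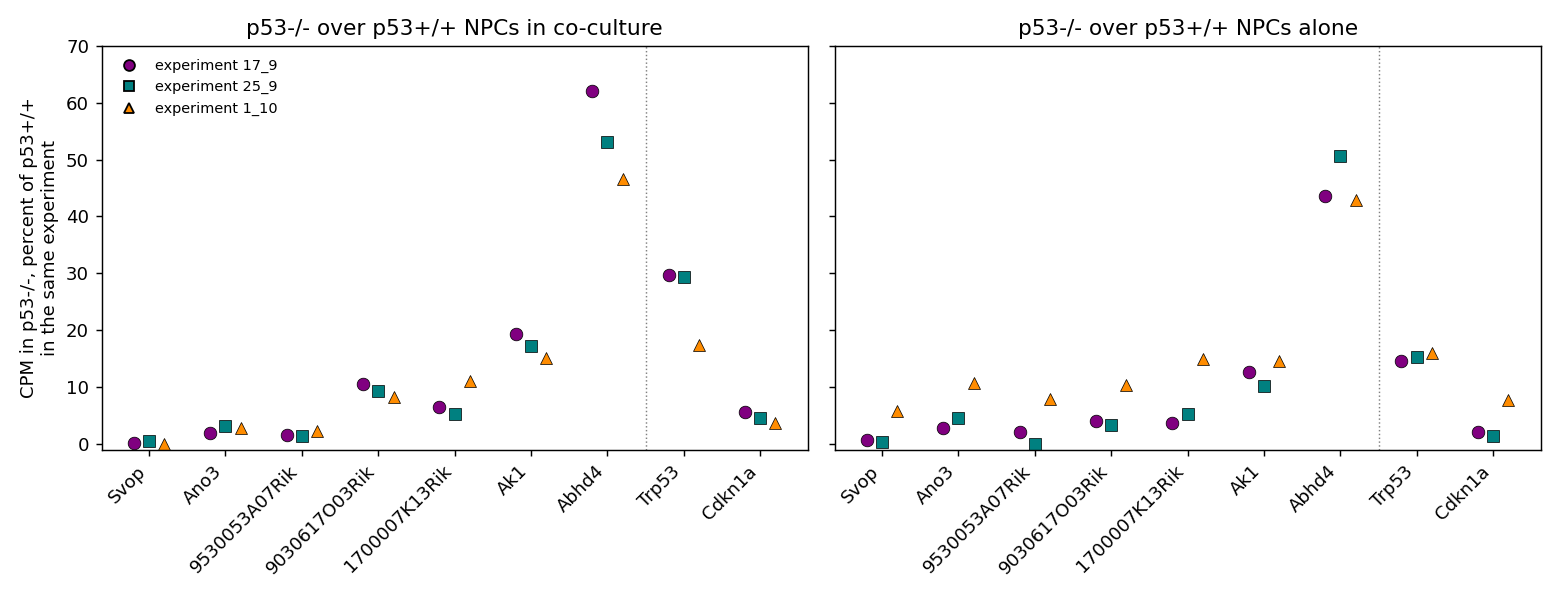
Level in p53-/- NPCs as a percent of that in p53+/+ NPCs of the same experiment, in co-culture (left panel) and alone (right panel), for the 7 genes and, right of the dotted line, Trp53 and Cdkn1a, with 1 point per experiment. In NPCs alone experiment 1_10 gave the highest value for 6 of the 7 genes and for Cdkn1a (7.66%), while Trp53 lay between 14.6% and 16.0% in all 3 experiments.

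The share that remained without p53 was uneven between experiments in NPCs alone. In experiment 1_10 the p53-/- alone library kept 5.83% of the p53+/+ level for Svop, against 0.663% in experiment 17_9 and 0.352% in 25_9. 9530053A07Rik kept 7.91% in experiment 1_10, 2.02% in 17_9 and 0% in 25_9, and 9030617O03Rik kept 10.3%, 4.07% and 3.33% in the same order. The median over the 7 genes was 10.7% in experiment 1_10, 3.64% in 17_9 and 4.56% in 25_9. Abhd4 was the exception, with its highest share (50.6%) in experiment 25_9. Cdkn1a was highest in experiment 1_10 (7.66%, 2.15% and 1.35% in experiments 1_10, 17_9 and 25_9), and Trp53 had 16.0%, 14.6% and 15.2% in the same order. Of the 31 listed p53 targets that were called lower alone, 20 also had their highest share in experiment 1_10, with medians that differed little (33.4%, 31.7% and 31.3% in the same order). In co-culture the highest share of the 7 genes fell in experiment 17_9 for 3 genes, in 25_9 for 2 and in 1_10 for 2. Trp53 in co-culture had 17.4% in experiment 1_10, 29.7% in 17_9 and 29.3% in 25_9. The part of uneven deletion in these shares was not tested.

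Whether contact with endothelial cells changed the 7 genes is a comparison that did not pick them, and it was tested within each genotype with edgeR over all 13745 genes. In p53-/- NPCs, Abhd4 and Ak1 rose and Ano3 fell in co-culture, and the other 4 genes passed the threshold in neither direction. In p53+/+ NPCs, Abhd4 rose and 9530053A07Rik fell, and the other 5 passed in neither direction. Co-culture moved a large share of all genes, 35.8% in p53-/- NPCs (18.8% higher, 17.0% lower) and 39.5% in p53+/+ NPCs (21.2% higher, 18.3% lower), so 3 of 7 and 2 of 7 are near the background. These shares stand for 4927 and 5430 genes, or 2147 and 1989 without experiment 25_9.

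Abhd4 had the most certain response. Its log2 fold change was 1.43 ± 0.18 in p53-/- NPCs (95% interval 1.04 to 1.81, edgeR adjusted p = 0.000102) and 1.17 ± 0.18 in p53+/+ NPCs (0.79 to 1.55, edgeR adjusted p = 0.000281). It was higher in co-culture in 3 of 3 experiments in both genotypes, by 2.25- to 3.40-fold in p53-/- NPCs and 2.07- to 2.39-fold in p53+/+ NPCs. Ak1 rose by 0.68 ± 0.16 in p53-/- NPCs (0.34 to 1.03, edgeR adjusted p = 0.00567), where co-culture gave 1.16 to 2.15 times the alone level. In p53+/+ NPCs the Ak1 value was 0.21 ± 0.15 (-0.12 to 0.54, edgeR adjusted p = 0.302). Without experiment 25_9 the Ak1 value in p53-/- NPCs was 0.50 and no longer passed (edgeR adjusted p = 0.117).

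Ano3 fell by 1.56 on the log2 scale in p53-/- NPCs (SE 0.49, interval -2.61 to -0.51, edgeR adjusted p = 0.0248) and was lower in co-culture in 3 of 3 experiments. Its value leaned on the p53-/- alone library of experiment 1_10, without which it was -0.81 (edgeR adjusted p = 0.127), and the call was lost in 5 of 15 fits that left out a library or an experiment (that library, the p53-/- co-culture library of 17_9 or of 25_9, and all of experiment 17_9 or 1_10). In p53+/+ NPCs it was -0.36 ± 0.34 (edgeR adjusted p = 0.423). 9530053A07Rik fell by 1.25 in p53+/+ NPCs (SE 0.43, interval -2.18 to -0.31, edgeR adjusted p = 0.0356), with 0.321 to 0.522 times the alone level in the 3 experiments and no overlap between the groups (6.90 ± 0.723 CPM in co-culture and 16.4 ± 2.94 CPM alone, SD, n = 3 each). The call was not made by DESeq2 (adjusted p = 0.151, log2 fold change -1.25) and was lost in 7 of 15 such fits (each p53+/+ library but the alone library of experiment 1_10, and all of experiment 17_9 or 25_9), with the value between -1.40 and -1.03.

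The remaining values did not pass the threshold. In p53-/- NPCs they were -2.45 ± 1.00 for Svop (edgeR adjusted p = 0.0728), -1.87 ± 0.88 for 9530053A07Rik (0.114), 0.58 ± 0.46 for 1700007K13Rik (0.344) and 0.08 ± 0.34 for 9030617O03Rik (0.871). The Svop and 9530053A07Rik values rest on 4 and 7 reads in the co-cultures and 24 and 27 reads alone. These 2 genes passed the filter only through their p53+/+ libraries, so no call is read from their p53-/- values under any setting. In p53+/+ NPCs they were -0.62 ± 0.31 for 9030617O03Rik (edgeR adjusted p = 0.127), 0.44 ± 0.32 for 1700007K13Rik (0.297) and 0.35 ± 0.36 for Svop (0.461). For 9030617O03Rik the interval was -1.28 to 0.04, and its co-culture libraries lay below its alone libraries. The summed endothelial markers were higher in the same co-cultures by the amounts given above, and the part of endothelial RNA in these values was not tested.

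**Figure D3:**
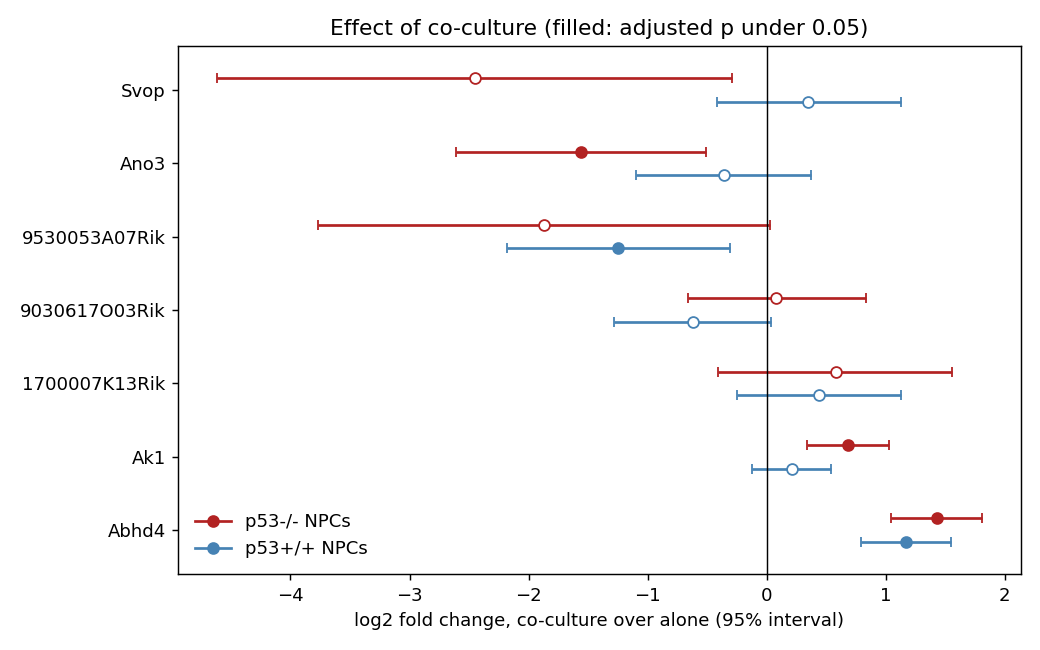
Log2 fold change of co-culture over culture alone for the 7 genes, in p53-/- NPCs (upper point of each pair) and p53+/+ NPCs (lower point), with 95% intervals of the edgeR fit and filled points where the adjusted p was under 0.05. Abhd4 is higher in both genotypes (1.43 and 1.17), and the intervals of Svop and 9530053A07Rik in p53-/- NPCs are the widest.

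The difference between genotypes in the co-culture effect was tested as an interaction. It equals the p53 difference in co-culture minus that alone, so it is built from the contrasts that picked the genes. Its values for the 7 genes are therefore a description. No member passed with edgeR (adjusted p 0.684 to 0.973) or DESeq2. An edgeR unadjusted p under 0.05 was found for 1 of the 7, beside 976 of all 13745 genes. That gene was Svop, at -2.80 ± 1.06 (edgeR unadjusted p = 0.0206, adjusted p = 0.684), and nothing is read from it on the few p53-/- reads given above. Ak1 came next, at 0.48 ± 0.22 (interval -0.00 to 0.95, edgeR adjusted p = 0.705), and Ano3 was at -1.20 ± 0.60 (edgeR adjusted p = 0.708). Of all genes 0.0364% were called, 5 genes, against 976 with an unadjusted p under 0.05, 20 called by DESeq2, 11 by edgeR with the experiment as a block and 0 to 6 when a library or an experiment was left out.

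Many genes known to respond to p53 fell as well. Of 49 listed p53 targets 48 were tested, and edgeR called 27 lower in co-culture and 31 lower alone, with the others called in neither direction. Of all genes 4.93% were called lower in co-culture and 4.27% alone. The list was chosen with earlier results of these data known, so its counts are a description and no independent test. Without experiment 25_9 the counts of targets called lower were 16 and 22, and without experiment 17_9 they were 27 and 28. The median log2 fold change of the list was -0.98 in co-culture, where that of all genes was 0.02, and -1.24 alone, where that of all genes was 0.05. Phlda3, an inhibitor of Akt, was at -3.05 ± 0.18 in co-culture (edgeR adjusted p = 4.82e-06). Dcxr, which reduces dicarbonyls and L-xylulose, was at -3.29 ± 0.27 in co-culture (edgeR adjusted p = 3.00e-05) and -3.59 ± 0.28 alone (1.18e-05). Sesn2, a stress-induced inhibitor of mTORC1, was at -2.14 ± 0.15 alone (edgeR adjusted p = 5.43e-06).

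Some close relatives of the 7 genes were called with p53 loss, beside 8.16% of all genes in co-culture and 6.29% alone. Of 5 tested adenylate kinases beside Ak1, Ak5 alone was lower, at -1.07 ± 0.22 in co-culture (edgeR adjusted p = 0.0119) and -1.11 ± 0.22 in NPCs alone (0.0109). Of 5 tested anoctamins beside Ano3, Ano10 was lower in co-culture (-0.37 ± 0.10, edgeR adjusted p = 0.0373), and none was called in NPCs alone. Of the Svop relatives Sv2a, which resides on synaptic vesicles, was lower in co-culture (-0.58 ± 0.16, edgeR adjusted p = 0.0405), while Sv2c, the other relative tested, was at 1.03 ± 0.36 (edgeR adjusted p = 0.0972) and 1 relative was called higher by DESeq2, by either fit with the block and from the groups compared only. Of 17 ABHD hydrolases beside Abhd4, 2 were lower in co-culture (Abhd11, -0.48 ± 0.11, and Abhd5, -0.47 ± 0.13, edgeR adjusted p = 0.0207 and 0.0465). In NPCs alone 2 were lower, Abhd5 (-0.54 ± 0.13, edgeR adjusted p = 0.0301) and Abhd3 (-1.07 ± 0.27, edgeR adjusted p = 0.0364). Of the 6 other enzymes of N-acylethanolamine formation and breakdown, Gde1, which cleaves glycerophospho-N-acylethanolamines, was lower in co-culture (-0.38 ± 0.10, edgeR adjusted p = 0.0362). With the experiment as a block 5 of the 17 hydrolases were lower and 1 higher in co-culture. The median of each of these 5 lists lay between -0.15 and 0.23. The calls of single relatives were less firm than those of Phlda3, Dcxr and Sesn2, which passed in all 15 fits that left out a library or an experiment: Gde1, Ano10 and Sv2a failed in 10, 10 and 9 of the 15 and with library size alone as the scale, Abhd5 in 11 and Abhd11 in 8 in co-culture, and Abhd3 in 8 and Abhd5 in 5 in NPCs alone. Ak5 failed in 5 of the 15 in co-culture and in 2 alone.

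Co-culture moved more of the relatives than p53 loss did, as it did over all genes. Of all genes 35.8% were called with co-culture in p53-/- NPCs and 39.5% in p53+/+ NPCs. With p53 loss 8.16% were called in co-culture and 6.29% alone. Abhd3, a hydrolase of medium-chain phospholipids, rose by 3.16 ± 0.27 on the log2 scale in p53-/- NPCs (edgeR adjusted p = 6.22e-06) and by 2.93 ± 0.26 in p53+/+ NPCs (5.95e-06). Of the 17 hydrolases 4 rose and 1 fell in p53-/- NPCs, and 5 rose in p53+/+ NPCs. Counted in either direction, these are not above the 35.8% and 39.5% given for the 2 genotypes. Counted as rises only, 4 of 17 and 5 of 17 are above the background of 18.8% and 21.2%. Whether the hydrolases differ from that background was not tested. Gde1, the N-acylethanolamine hydrolase Faah and the acid amidase Naaa rose in both genotypes, which is 3 of 6 in the pathway that Abhd4 belongs to, where 18.8% of all genes were higher in p53-/- and 21.2% in p53+/+ co-cultures. Naaa had the largest of these values, at 1.48 ± 0.50 in p53-/- NPCs (edgeR adjusted p = 0.0348) and 1.99 ± 0.50 in p53+/+ NPCs (0.00737). The anoctamin Ano1, a calcium-activated chloride channel, rose by 1.72 ± 0.51 in p53-/- NPCs (edgeR adjusted p = 0.0191) and by 1.72 ± 0.47 in p53+/+ NPCs (0.0119), and Sv2a rose by 1.41 ± 0.16 in p53-/- NPCs (5.95e-05) and by 1.51 ± 0.16 in p53+/+ NPCs (2.39e-05). Abhd3 and Sv2a passed in all 15 fits that left out a library or an experiment, while Ano1 failed in 5 in p53-/- and 3 in p53+/+ NPCs, Naaa in 5 and 1, Faah in 6 and 5 and Gde1 in 4 and 1. The endothelial marker sum was higher in the same co-cultures, and its part in these values was not tested.

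The genes with the most similar profile were sought among 12609 genes by the root-mean-square difference of log2 CPM, each gene centred on its mean over the 12 libraries. That difference includes the fall with p53 loss that picked the 7 genes. Genes with a similar fall therefore lie near by construction, and the neighbours are given as a description only. The nearest to Svop were Eda2r (1.16), Cdkn1a (1.25) and Pqlc3 (1.58), none of which was close, since Svop fell further. For Ano3 they were Gria3 (0.63), Eda2r (0.70) and Cdkn1a (0.78), and for 9530053A07Rik Eda2r (0.54), Cdkn1a (0.77) and Gria3 (1.01). Eda2r, a receptor of the TNF receptor superfamily, had 3.29 ± 0.748 CPM in p53-/- co-cultures, 5.34 ± 6.64 CPM in p53-/- NPCs alone, 83.7 ± 10.6 CPM in p53+/+ co-cultures and 132 ± 24.1 CPM in p53+/+ NPCs alone (SD, n = 3 each). 9030617O03Rik lay nearest to Gria3 (0.33), an AMPA receptor subunit, Ccng1 (0.38) and Klhdc7a (0.44). 1700007K13Rik lay nearest to Dcxr (0.33), Pqlc3 (0.40) and the DNA repair enzyme Mgmt (0.44), and Ak1 to Cep170b (0.31), Phlda3 (0.34) and Dcxr (0.37).

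Abhd4 had other neighbours than the rest, by a measure that includes its smaller fall. They were Ogdhl (0.08), Gm973 (0.14) and the cell adhesion gene Nfasc (0.14). Ogdhl, a relative of the E1 subunit of oxoglutarate dehydrogenase, had 100 ± 28.7 CPM in p53-/- co-cultures, 34.7 ± 3.36 CPM in p53-/- NPCs alone, 167 ± 18.4 CPM in p53+/+ co-cultures and 73.0 ± 1.08 CPM in p53+/+ NPCs alone (SD, n = 3 each), the same order of groups as Abhd4. Among the 7 genes themselves the difference ran from 0.56 to 3.10, the largest between Svop and Abhd4.

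**Figure D4:**
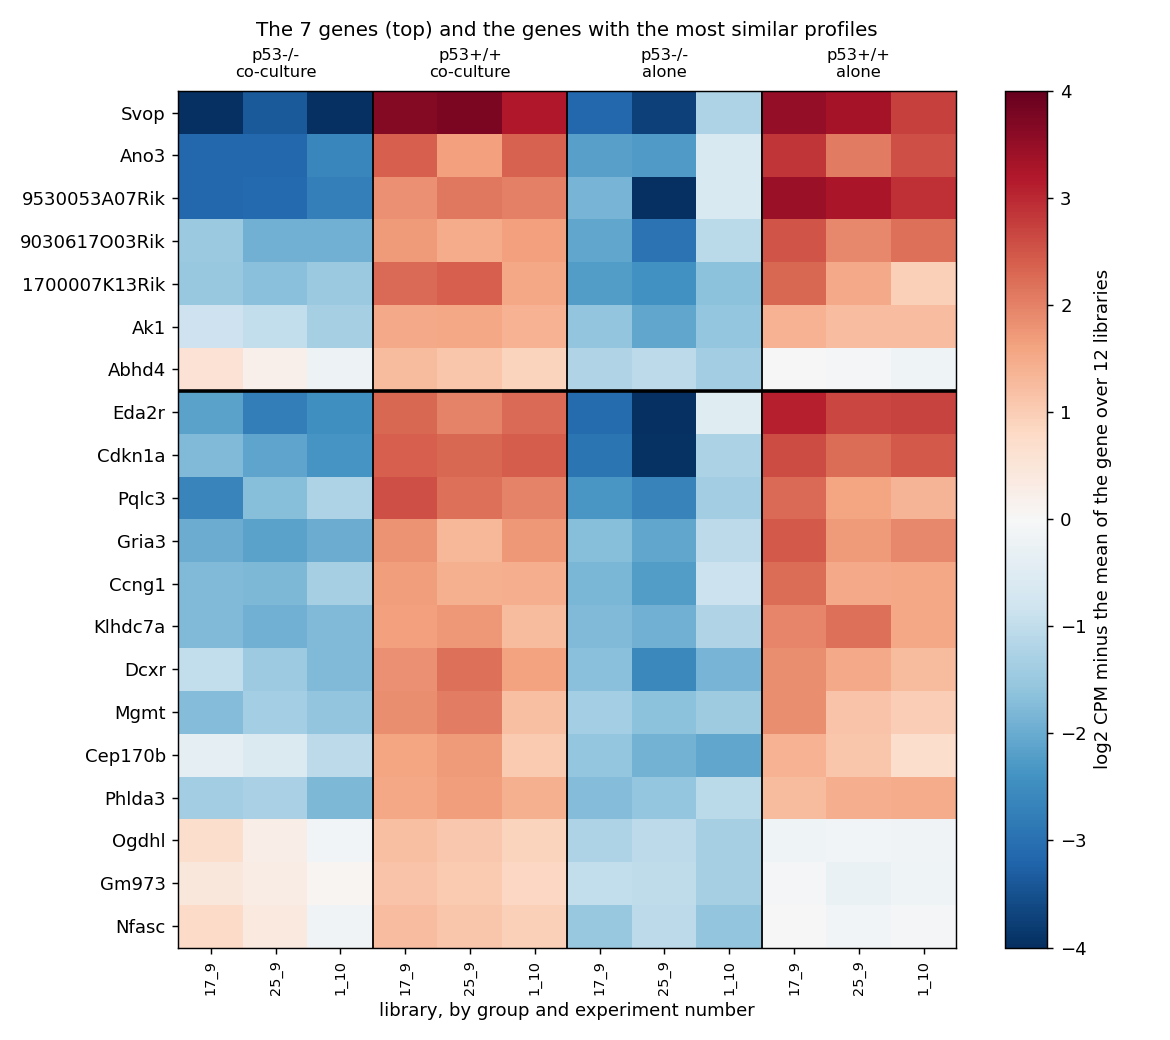
Log2 CPM of the 7 genes (above the black line) and of the genes with the most similar profiles (below it) in each of the 12 libraries, minus the mean of the gene, with colours that end at -4 and 4. Svop, Ano3, 9530053A07Rik, Eda2r and Cdkn1a are palest among the p53-/- alone libraries in experiment 1_10, and Abhd4, Ogdhl, Gm973 and Nfasc differ by culture as well as by genotype.

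Reads of overlapping genes could enter some of these counts, since the kit keeps strand but the strand setting of the counting is not given in the sources used here. In the GENCODE M21 annotation (GRCm38) 9530053A07Rik, 1700007K13Rik, Ak1 and Abhd4 overlap no other gene. Svop overlaps Usp30 on the opposite strand, which had 364 to 1087 reads and log2 fold changes for p53 loss of -0.28 ± 0.20 in co-culture (edgeR adjusted p = 0.394) and 0.03 ± 0.20 alone (0.940). Ano3 overlaps Muc15, also on the opposite strand, whose 3 to 21 reads were below the p53+/+ counts of Ano3. They were also below its p53-/- counts alone (28 to 76 reads), but of the size of its p53-/- co-culture counts (13 to 18 reads). The part of Muc15 reads in the Ano3 counts was not tested.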

How the data were processed

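Total RNA of 12 cultures was made into stranded mRNA libraries. The submitters' processing notes name TopHat2 2.0.11, HTSeq 0.6.1 and the mm9 genome, and the deposited values are raw read counts per gene symbol that the authors made with these tools. Neither the annotation nor the strand setting of the counting is stated by any source used here. Columns name a group and an experiment, not a single labelled sample, and were grouped on that basis. Of 24108 genes listed, 18810 had a count, 27 symbols had been turned into dates and 2 stood in more than 1 row. The 3 libraries of a group differed by 13.2 to 62.5 times the counting variance, so none was a copy of another. Nothing says whether they came from separate animals, so p-values measure the spread between these cultures.

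edgeR 4.0.16 (R 4.3.3, limma 3.58.1) was run with filterByExpr, TMM factors (0.961 to 1.04) and the quasi-likelihood F test in 1 model of the 4 group means over 12 libraries, with Benjamini-Hochberg adjustment over 13745 genes and a threshold of 0.05. The model was tested on simulated data. Levels are TMM-scaled CPM, and log2 CPM used a prior count of 2. Shares left were computed from summed counts with exact 95% intervals, which cover counting error only. Figures used matplotlib 3.10.9. Alternatives were DESeq2 1.42.0, its size factors, library size alone, no filter, only the groups compared, a block for the experiment, and leaving out each library or experiment. Equal experiment numbers pair libraries by the key of the study's own table. Deviations from group means correlated at 0.128 to 0.618 in the 18 pairs with the same number and at -0.608 to 0.241 in the 36 others.

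The genes named are the 7 members, Trp53 and Cdkn1a, for each member the 3 nearest profiles among genes whose log2 CPM averaged 0 or more, and at most 3 genes of each list, those with the lowest adjusted p. Further genes were named where a count was small, and those were chosen after their values were seen. The members and the lists were chosen with earlier results of these data known. RefSeq names and promoters are of GRCm38, not mm9, and were matched by symbol or synonym. A few results on related or overlapping genes are not reported here.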

Additional observations from a re-analysis of the deposited data

How the results depend on the processing

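Of 761 values of the 7 genes recomputed under the alternatives, 723 counted as unchanged. For co-culture and the interaction this meant the same direction and side of the threshold, or the same direction where no adjusted p was given. For p53 loss, which was not tested, it meant the same direction and a shift below the SD between experiments of the log2 share left. The edgeR fit with the experiment as a block changed no call of the 7 genes. Other settings moved the counts over all genes. For the interaction 5 genes were called, and 20 by DESeq2, 11 with the block and 276 with DESeq2 and the block. p53 loss in co-culture had 1122 genes called, and 1744 by DESeq2, 2872 with the block and 3008 with DESeq2 and the block. p53 loss alone had 864, and 1465 by DESeq2, 2278 with the block, 2550 with DESeq2 and the block and 349 from the groups compared only. With library size alone as the scale, p53 loss in co-culture split into 624 higher and 555 lower, where TMM gave 445 and 677. Of the 7 genes, 1 was called lower in p53+/+ co-cultures, and 0 by DESeq2 with or without the block and 2 from the groups compared only. In p53-/- co-cultures 1 was called lower, and 2 by DESeq2, the second being Svop.

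Leaving out a library or an experiment gave 0 to 6 genes for the interaction, 42 to 1338 for p53 loss in co-culture, 120 to 894 for p53 loss alone, 2147 to 5301 for co-culture in p53-/- NPCs and 1989 to 5722 in p53+/+ NPCs, with the lowest counts of the last 4 without experiment 25_9. The members called lower were 0 to 3 in p53-/- and 0 to 2 in p53+/+ NPCs, and those called higher 1 to 2 in both. The sign turned for the 1700007K13Rik interaction (0.14, range -0.30 to 0.48), the 9530053A07Rik interaction (-0.63, -1.21 to 0.65) and 9030617O03Rik in p53-/- co-cultures (0.08, -0.27 to 0.79), none of which was called. 9030617O03Rik passed in p53+/+ NPCs from the groups compared only (-0.62, 0.0131), and 1700007K13Rik when that group's alone library of experiment 17_9 was left out (0.86, 0.0397). The causes were not tested. Svop and 9530053A07Rik in p53-/- NPCs could not be fitted from the groups compared only, since they did not pass the filter there, so calls of these 2 genes in p53-/- NPCs under other settings rest on too few reads to be read.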
